A study of Homo sapiens with 8 samples.

Results

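The regions described here are stretches of accessible chromatin that carried a called ATAC-seq peak in at least 3 of 4 libraries from HEK293T cells with a lentivector for H2A(E92K) and in 0 of 4 libraries from cells with a lentivector for H2A. They are called E92K-leaning regions. They were selected on presence and absence of called peaks in these 8 libraries, so their presence in one group and absence from the other is what chose them and no result. The lists of the 8 libraries merged into 96872 regions, of which 701 met the rule (0.724%). Of the 701, 135 had a peak in 4 of 4 E92K libraries and 566 in 3 of 4. The mirror rule, a peak in at least 3 of 4 H2A libraries and 0 of 4 E92K libraries, kept 816 regions (0.842%), called H2A-leaning.

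HEK293T is a line of human embryonic kidney origin that expresses the large T antigen of SV40. Both groups received a lentivector, both are labelled as untreated, and the labels describe the cells as transfected as well. They do not say how much of the cells' H2A the vector supplied, which promoter drove it, or whether replicates were separate cultures, so the spread between replicates may be technical. The labels give genomic DNA as the material, although the extraction note speaks of RNA.

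In ATAC-seq the transposase Tn5 inserts adapters into DNA that is not wrapped tightly in nucleosomes, so that promoters, enhancers and insulators appear as peaks of fragments. A nucleosome wraps DNA around 8 core histones, and H2A and H2B together form a negatively charged surface, the acidic patch, to which chromatin remodelers, ubiquitin ligases and the histone H4 tail bind. The E92K change puts the positively charged lysine in place of a glutamate of that patch. Accessible sites far from genes are mostly enhancers and insulators. CTCF, the zinc finger protein of insulators and chromatin loops, and families such as AP-1, GATA and homeobox factors each recognise short DNA words at such sites.

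Sequences of the regions on which the results turn are given first, from hg38. In each window below, the summit of the strongest peak and 100 bases on either side are in lower case and a searched motif is in capitals. In MYLK the capitals mark a CTCF core read on the minus strand, in LRRTM4 the GATA word AGATAA, in FAM241A the homeobox word TAATTA and in JUN the AP-1 word TGANTCA. MYLK and LRRTM4 are shown because they hold the highest folds of any E92K-leaning region, FAM241A because its 4 values were nearly alike, and JUN because it lay in the highest local background.

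MYLK (chr3:123702143-123702343, plus strand): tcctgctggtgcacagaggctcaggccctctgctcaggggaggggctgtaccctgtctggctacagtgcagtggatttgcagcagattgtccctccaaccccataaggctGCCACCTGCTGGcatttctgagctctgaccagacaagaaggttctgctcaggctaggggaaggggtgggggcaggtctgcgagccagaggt

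LRRTM4 (chr2:77684754-77684954, plus strand): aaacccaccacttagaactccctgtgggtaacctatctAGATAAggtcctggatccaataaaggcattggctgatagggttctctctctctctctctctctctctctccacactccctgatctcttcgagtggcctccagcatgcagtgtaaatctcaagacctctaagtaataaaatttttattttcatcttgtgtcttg

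FAM241A (chr4:111650839-111651039, plus strand): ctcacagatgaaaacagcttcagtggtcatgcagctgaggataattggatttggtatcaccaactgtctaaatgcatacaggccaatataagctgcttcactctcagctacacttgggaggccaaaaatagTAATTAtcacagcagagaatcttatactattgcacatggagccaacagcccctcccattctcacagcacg

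JUN (chr1:58779988-58780188, plus strand): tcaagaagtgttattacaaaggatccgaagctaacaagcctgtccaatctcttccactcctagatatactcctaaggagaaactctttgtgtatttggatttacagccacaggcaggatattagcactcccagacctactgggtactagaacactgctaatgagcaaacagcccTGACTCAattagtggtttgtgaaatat

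The CTCF core was found in 12 of the 701 regions, and the low number of these is the main difference in sequence content described below. All 12 matches are shown with 10 bases on either side, each on the strand that reads as the core, which stands in capitals. Names are those of the nearest protein-coding gene.

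MYLK (chr3:123702243-123702274, minus strand): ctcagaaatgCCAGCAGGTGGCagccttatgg

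RPIA (chr2:89048556-89048587, minus strand): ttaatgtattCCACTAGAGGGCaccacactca

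DAAM2 (chr6:39824287-39824318, plus strand): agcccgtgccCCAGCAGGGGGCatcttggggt

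CHMP6 (chr17:80970577-80970608, minus strand): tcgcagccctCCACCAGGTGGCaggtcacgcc

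SOX12 (chr20:330744-330775, minus strand): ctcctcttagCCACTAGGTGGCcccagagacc

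SLC19A2 (chr1:169509554-169509585, minus strand): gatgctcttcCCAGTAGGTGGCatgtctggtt

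CYP26B1 (chr2:71995225-71995256, minus strand): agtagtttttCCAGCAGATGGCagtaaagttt

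RNF13 (chr3:149808403-149808434, minus strand): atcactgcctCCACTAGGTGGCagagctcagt

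PHF3 (chr6:63764516-63764547, minus strand): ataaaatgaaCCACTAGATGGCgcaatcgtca

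NOVA1 (chr14:26394231-26394262, plus strand): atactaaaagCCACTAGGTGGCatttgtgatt

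KIF26A (chr14:104284152-104284183, plus strand): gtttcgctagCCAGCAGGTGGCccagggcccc

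DEFB115 (chr20:29443363-29443394, plus strand): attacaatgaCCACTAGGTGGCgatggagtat

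Facts on the libraries bear on what presence means. The E92K lists held 55527 to 61850 peaks and the H2A lists 57439 to 62044. The genome-wide background behind the peak p-values, which follows depth, was 2.41, 2.68, 2.23 and 2.26 fragments in E92K replicates 1 to 4 and 2.71, 2.52, 2.53 and 2.93 in H2A replicates 1 to 4. Of the E92K libraries 3 therefore lay below every H2A library. No library had a peak with fewer than 9 fragments at its summit. Promoters of SIX2, PAX2, SALL1, NEFL and INA, genes that HEK293T cells express, had a peak in 8 of 8 libraries. Among markers of other cells, CD3E, ALB and PECAM1 had a promoter peak in 0 libraries and PTPRC in 1, whereas COL1A1 had one in 8.

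The plot of regions by the number of libraries with a peak shows where the 701 stand. Just outside the rule, 1985 regions had a peak in 2 E92K libraries and no H2A library, 418 in 4 E92K and 1 H2A library, and 1124 in 3 E92K and 1 H2A library. The authors' fold over local background had a median over E92K peaks of 3.92 for members in 4 of 4 and 3.65 for members in 3 of 4. It was 3.56 for the 1985 regions with 2 E92K peaks and 4.04 for the 418 with 1 H2A peak. The H2A peaks of those 418 had a median fold of 3.62. Regions on either side of the rule were thus of similar height.

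**Figure D1:**
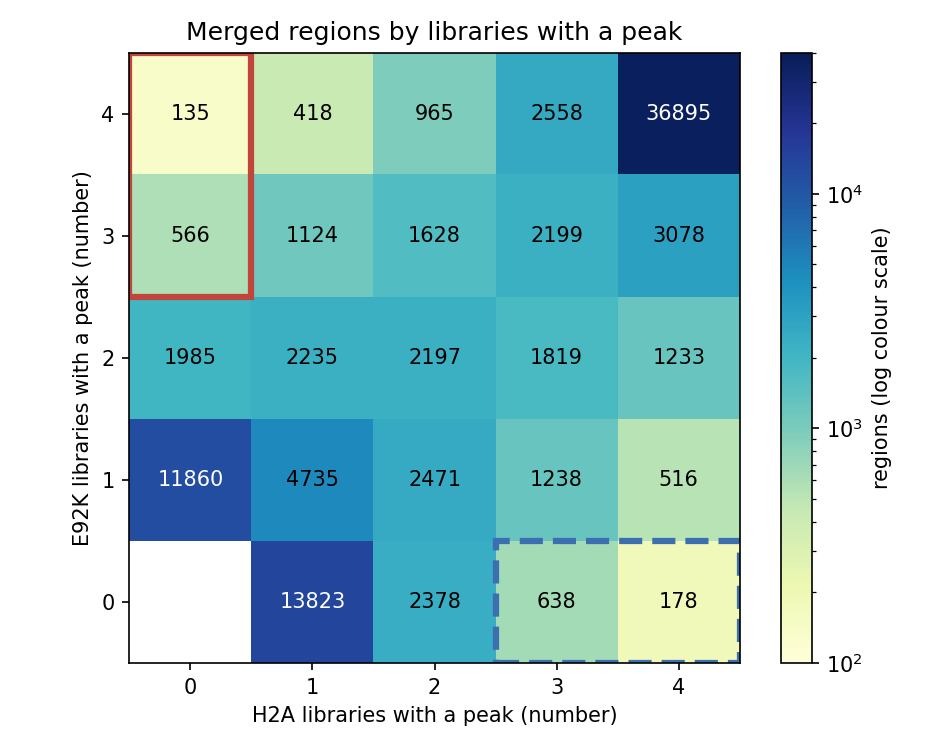
Number of merged regions (printed in each cell, colour on a log scale) by the number of H2A libraries (horizontal) and E92K libraries (vertical) with a peak. The solid frame holds the 135 and 566 E92K-leaning regions, the dashed frame the 178 and 638 H2A-leaning regions, and the corner cell the 36895 regions with a peak in 8 libraries.

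Most E92K-leaning regions were weak peaks, as were most other regions with a peak in 3 or 4 of the 8 libraries. Median fold was 3.52, 3.52, 3.58 and 3.69 in E92K replicates 1 to 4, where 515, 612, 556 and 555 of the 701 had a peak, against list medians of 5.46, 5.29, 5.42 and 5.64. Median −log10 q was 3.97, 4.03, 4.08 and 4.31. Summits of the members held a median of 15 fragments, and 1217 of 2238 summit values (54.4%) were at most 15 fragments, while the median of a whole list was 28 to 31. The values in the 4 libraries were close to each other. A median member stood at the 15.8th, 18.1th, 18.1th and 16.5th percentile of the 4 lists when peaks were ranked by p-value. For the other regions in 3 or 4 libraries the median percentile in E92K replicates 1 to 4 was 17.4, 19.6, 17.1 and 15.3. Their median fold there was 3.71, 3.68, 3.71 and 3.69. In every E92K library where it had a peak, 1 member of the 135 and 3 of the 566 stood above the 50th percentile. A q of 1e-05 or less in every such library was reached by 21 of the 135 and 35 of the 566, and 263 of the 701 reached it in no library.

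**Figure D2:**
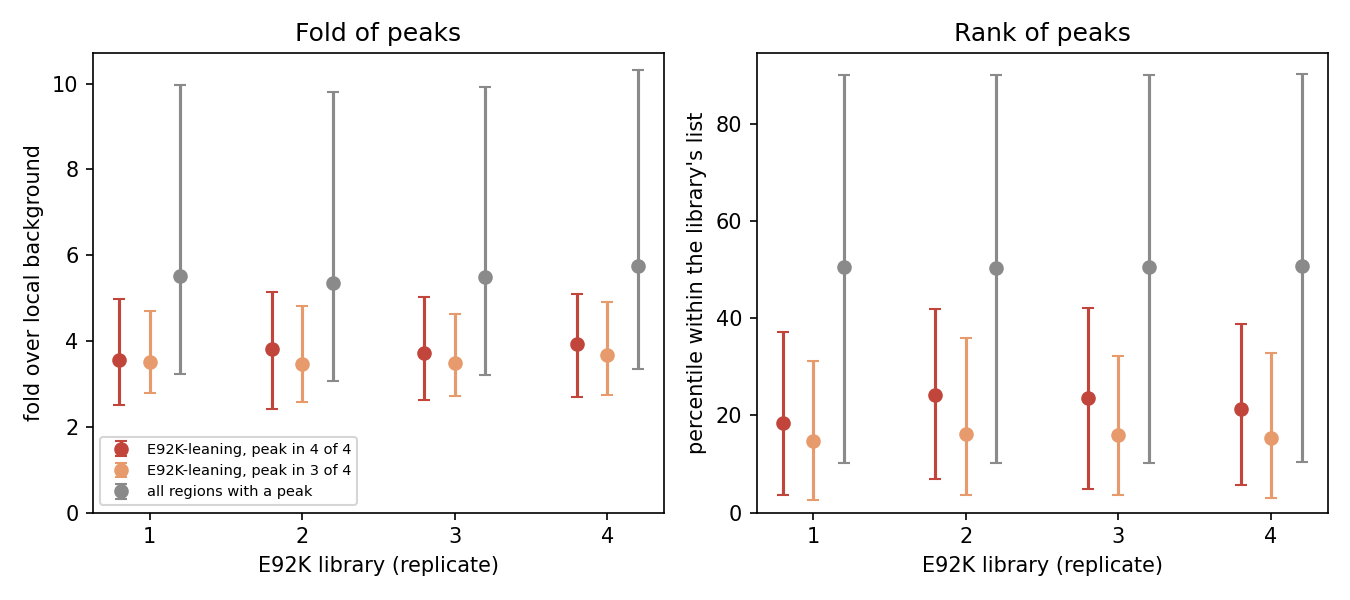
Fold over local background (left) and percentile by p-value within the library's list (right) in each E92K library; points are medians and bars run from the 10th to the 90th percentile of regions. Members with a peak in 4 of 4 (red) and 3 of 4 libraries (orange) had medians of 3.47 to 3.94-fold, below those of all regions with a peak (grey).

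Width was 601 bp at the median and ran from 264 to 2059 bp, compared with 578 bp for the 9265 other regions that had a peak in 3 or 4 of the 8 libraries, 536.5 bp for H2A-leaning regions and 645 bp for all regions. Mean fold ran from 1.90 to 10.6 with a median of 3.71. Over the libraries with a called peak, the coefficient of variation of fold had a median of 13.5% for members in 4 of 4 and 12% for those in 3 of 4, and it reached 34.6% and 43.7%. Libraries without a peak give no fold, so the choice of called peaks limits this spread. Among the 566 members in 3 of 4, the library without a peak was E92K replicate 1 in 186 (32.9%), replicate 2 in 89 (15.7%), replicate 3 in 145 (25.6%) and replicate 4 in 146 (25.8%). Replicate 2, with the highest background of the 4, lacked a peak least often.

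Whether the lean carries over to a library that did not choose the regions was measured by leaving out 1 E92K and 1 H2A library at a time. Regions with a peak in the 3 other E92K libraries and none of the 3 other H2A libraries numbered 348 to 544. The left-out E92K library had a peak in 46.4% to 65.1% of them (median 51.5%) and the left-out H2A library in 32.3% to 45.2% (median 39.3%). The E92K share was higher in 16 of 16 pairs, by 4.68 to 27.6 percentage points with a median of 14.3. These pairs share libraries, so no p is given. The same 135 members with a peak in 4 of 4 E92K libraries counted towards the left-out E92K share in every pair. The 16 differences are therefore not separate results. Means by left-out library were 47.8%, 63.6%, 52.4% and 51.0% for E92K replicates 1 to 4 and 39.0%, 34.4%, 38.2% and 43.2% for H2A replicates 1 to 4. The 2 groups did not overlap in these means. The means share those 135 members, which by the rule had no peak in any H2A library, so the lack of overlap is no separate result. At least 32.3% of such regions still carried a peak in an H2A library that had no part in choosing them. For the mirror regions, the left-out H2A library had a peak in 50.5% to 63.1% and the left-out E92K library in 29.4% to 45.5%.

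**Figure D3:**
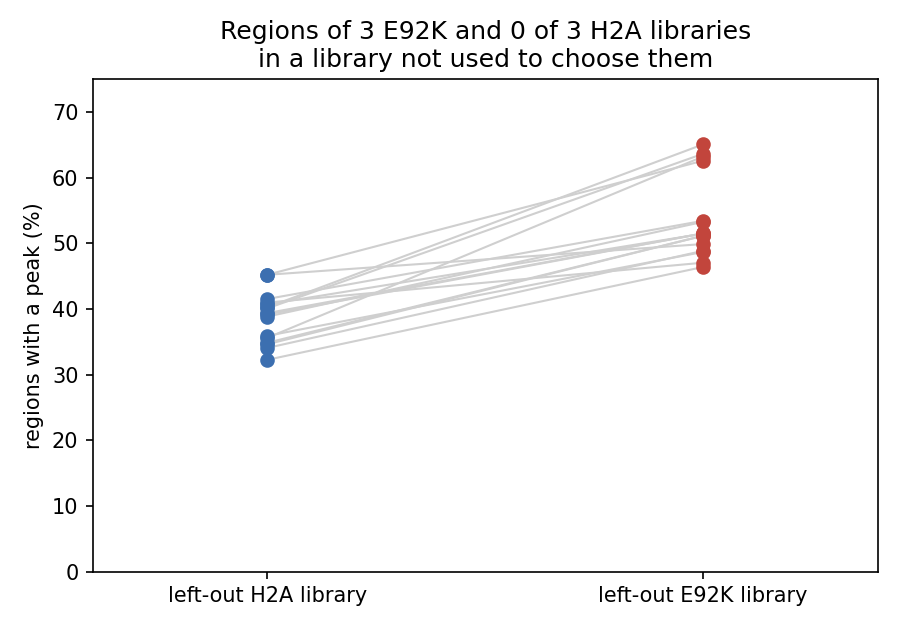
Share of regions (%) with a peak in an H2A library (blue) and an E92K library (red) that were left out when the regions were chosen; each grey line joins 1 of 16 pairs of left-out libraries. In each pair the E92K share (46.4% to 65.1%) lay above the H2A share (32.3% to 45.2%).

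The regions lay mainly far from promoters. By their midpoint, 348 (49.6%) were intergenic, 312 (44.5%) in an intron, 19 (2.71%) in an exon and 22 (3.14%) within 1000 bp of a protein-coding TSS. Promoters made up 3.37% of the other regions in 3 or 4 libraries, 3.92% of the H2A-leaning regions and 15.1% of all regions. The promoter share of the members was thus that of other regions seen in few libraries. From the nearest coding TSS a member stood 48.0 kb away at the median, against 46.3 kb for the other regions in 3 or 4 libraries, 36.5 kb for H2A-leaning regions and 31.7 kb for all. Members in 4 of 4 libraries were farther out (65.9 kb) than those in 3 of 4 (44.7 kb). A long noncoding RNA gene covered 129 members (18.4%), against 17.4% of the other regions in 3 or 4 libraries.

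Some members had a peak of the H2A libraries close by. Within 1 kb, 88 members (12.6%) had another region with an H2A peak, against 9.28% of the other regions in 3 or 4 libraries, 10.2% of H2A-leaning regions and 12.4% of regions seen in 1 library, and 17 (2.43%) had a region with a peak in 8 libraries. A member 146 kb upstream of TAB2, which links cytokine receptors to the kinase TAK1, had such an H2A peak 0.08 kb away. The intron of HEBP2, a gene of a heme-binding protein, had one 0.908 kb away.  With peaks up to 100 bp apart merged, 687 of the 701 remained.

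Chromosome 6 held 69 members (9.84%, against 7.62% of all regions), chromosome 4 held 61 (8.70% against 6.21%) and chromosome 15 held 29 (4.14% against 2.46%). Chromosome 17 held 11 (1.57% against 3.04%). Of the other regions in 3 or 4 libraries, 7.87%, 7.22%, 1.92% and 2.60% lay on chromosomes 6, 4, 15 and 17. Members had 628 different nearest protein-coding genes, and 59 of these had 2 or more. KLHL1, a kelch-family actin-binding protein, and PCDH9, a protocadherin of neurons, had the most with 4 each. Within 200 kb of another member stood 112 of the 701.

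Over all members, median fold was higher in 4 of 4 libraries (3.92) than in 3 of 4 (3.65). The highest folds were nonetheless among the strongest regions with a peak in 3 of 4 E92K libraries. The first lay in an intron of MYLK, the myosin light chain kinase that drives contraction of smooth muscle and cell motility (chr3:123701989-123702541), 1.06 kb upstream of the nearest coding TSS of that gene. Its fold was 11.3 in E92K replicate 1, 9.66 in replicate 2 and 11 in replicate 4, with a −log10 q of 33.7 to 49.3, and replicate 3 had no peak. It stood between the 74.2th and 82.9th percentile where called, the highest lowest percentile of the 701.

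A region of 559 bp lay 163 kb upstream of LRRTM4, a postsynaptic adhesion protein of neurons (chr2:77684624-77685182). Its fold was 6.74 in replicate 1, 11.4 in replicate 2 and 6.45 in replicate 4, so replicate 2 stood apart. A region in an intron of BMERB1 (chr16:15539239-15539720) had a fold of 6.81, 7.24 and 8.72 in replicates 2 to 4. These 3 libraries lay within a narrow range.

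Others in this group lay near genes of varied function. The region 357 kb downstream of the TSS of RPIA, an enzyme of the pentose phosphate pathway (chr2:89048351-89048627), had a fold of 7.56 ± 1.08 (SD, n = 3) and a CTCF core. The region 5.45 kb downstream of the TSS of KLF4, a zinc finger transcription factor of pluripotency and epithelia, lay 0.54 kb from the gene's end (chr9:107484045-107484579) and had a fold of 5.18 ± 0.579 (SD, n = 3). It had no peak in E92K replicate 1. An exonic region within the spans of OPA3, a mitochondrial protein gene, and of the proton-sensing receptor gene GPR4 (chr19:45590898-45591185) had 6.44, 6.09 and 6.22 in replicates 1 to 3. Which gene holds the exon was not recorded. Regions near the histone gene H3-7, the Golgi complex gene COG2 with AGT as its nearest TSS, BLOC1S5 of lysosome-related organelles, and LINGO1, a membrane protein of neurons, completed the 10. Among these, LINGO1 varied most, with a fold of 7.75 in replicate 2, 3.82 in replicate 3 and 5.67 in replicate 4.

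Values of the strongest members in 4 of 4 libraries are given next. Near FAM241A (chr4:111650767-111651244) the fold was 4.64, 5.06, 4.73 and 4.96 in replicates 1 to 4. In an intron of PALM2AKAP2 (chr9:109812436-109813370) it was 4.79, 4.89, 7.16 and 5.70, with replicate 3 highest. Upstream of LATS2, a kinase of the Hippo pathway (chr13:21067566-21068211), it was 4.67, 5.16, 4.50 and 6.39. HMCN2, an extracellular matrix gene (chr9:130240450-130240885), had an upstream region with 6.08, 5.66, 4.89 and 3.34, the widest range of the 10 regions in 4 of 4. The other regions of this set, at TMEM68, LRRC63 and NFIA, ranged from 3.52 to 6.45 over their libraries.

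**Figure D4:**
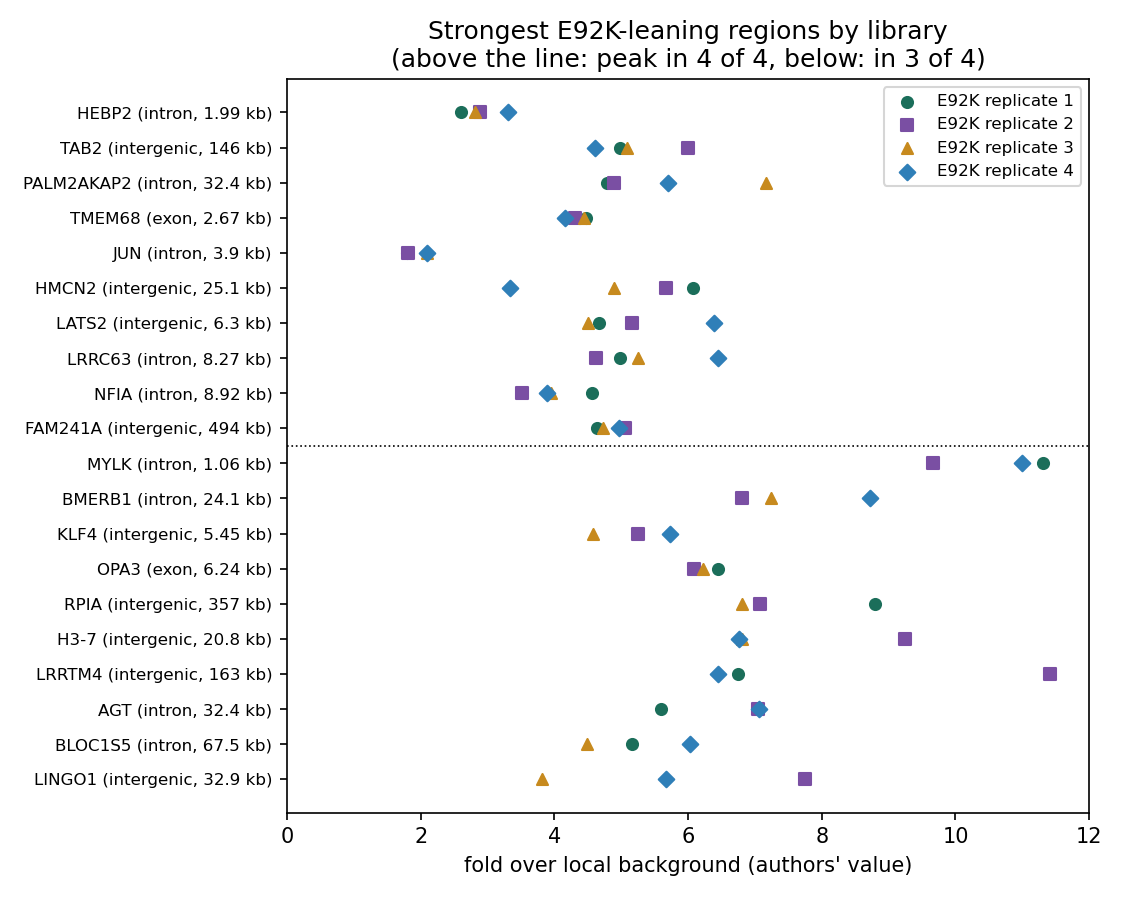
Authors' fold over local background (horizontal) of the 10 strongest members with a peak in 4 of 4 E92K libraries (above the dotted line) and in 3 of 4 (below it), named by nearest coding gene with class and distance to its TSS; each symbol is 1 library. MYLK and LRRTM4 reach 11.3 and 11.4-fold, while HEBP2 and JUN, which lie in high local background, stay at 1.80 to 3.30-fold.

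A group of 80 members (11.4%) lay in places where the local background was over 3 times the genome-wide one, so that a low fold went with many fragments. The same held for 99 H2A-leaning regions (12.1%), 589 of the other regions in 3 or 4 libraries (6.36%) and 20.4% of all regions. Of the 135 members in 4 of 4 libraries 27 were of this kind, and of the 566 in 3 of 4, 53. Their median distance to a coding TSS was 6.79 kb, compared with 59.9 kb for the remaining 621 members. The genes named from this group, other than JUN, HEBP2, KLF4 and members of the gene lists, were picked after their values were seen.

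At JUN, the AP-1 subunit gene (chr1:58779760-58780545), the region lay within the annotated gene span, 3.90 kb downstream of the TSS. Summits there held 129, 169, 163 and 155 fragments in replicates 1 to 4 over a local background of 71.4, 92.9, 77.1 and 73.7, so the fold was only 1.80, 1.81, 2.10 and 2.09. The intron of HEBP2 held 93, 127, 109 and 116 fragments over 35.1, 43.4, 38.0 and 34.5. FOXO3, a forkhead factor of stress response, had an intronic region (chr6:108562430-108562843) with a fold of 1.71, 1.82, 1.90 and 2.26. SLIT2, a secreted guidance cue for axons, had one 1.28 kb downstream of its TSS with 2.24, 1.77, 1.92 and 2.12. In these regions a small excess over a tall surrounding signal was called in the E92K lists and not in the H2A lists.

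Several of the 80 stood at the ends of genes. Of the 80, 19 (23.8%) were within 2 kb of the end of a coding gene, against 13 of 99 H2A-leaning (13.1%) and 85 of 589 other regions (14.4%) with a local background over the same limit. Examples are SOX4, a developmental transcription factor (1.77 kb, fold 2.01 ± 0.0773, SD, n = 3), the ribosomal protein gene RPLP1 (1.34 kb, 2.16 ± 0.229), the glucocorticoid-induced gene TSC22D3 (0.489 kb, 2.27 ± 0.173) and the histone variant gene H3-3B (1.37 kb, 2.03 ± 0.149). Over all members the share within 2 kb of a gene end was 5.14% (36 of 701), against 5.03% of H2A-leaning regions and 4.51% of all regions, and it was 9.69% of all regions in high background. The closest pairs of members lay partly in such background, and most lay farther than 2 kb from a coding gene's end. In NEAT1, the noncoding RNA that builds paraspeckles, members at chr11:65426992-65427691 and chr11:65427910-65428767 were separated by 218 bp. In RPS4X, members at chrX:72269922-72270768 and chrX:72271087-72271821 were 318 bp apart. Both pairs were in high background, as were those at SOX4 (4808 bp apart) and in RPS3 (5571 bp). The pairs downstream of COX7C, a subunit of cytochrome c oxidase (917 bp), and upstream of PRR16 (6955 bp) were not. Of the widest members, ZNF212 (2059 bp), the SNHG5 region nearest SYNCRIP (1867 bp), ADAMTS1 (1623 bp) and SNHG7 at DIPK1B (1580 bp) were in high background, while the 1703 bp region upstream of RIMS1 was in low background. Without the 80, 621 E92K-leaning and 717 H2A-leaning regions remained.

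Promoters were few, and the folds at them low. The 22 promoter members included NME3 of nucleotide metabolism, the prostaglandin receptor gene PTGER1, the signalling adaptor gene DOK5, the hair-cell genes CLRN1 and PTPRQ and the epithelial adhesion gene EPCAM. LIMD2 (chr17:63699268-63700386) and CLRN1 (chr3:150972559-150973029) were those with a peak in 4 of 4 libraries. At LIMD2 the fold was 2.28, 3.03, 2.79 and 2.31 in replicates 1 to 4, and at CLRN1 it was 3.22, 4.78, 3.18 and 3.38. In both, replicate 2 was the highest. At NME3 the fold was 2.02, 2.37 and 2.51 in replicates 1 to 3, and at DOK5 it was 4.10, 3.53 and 4.33. At EPCAM it was 2.99, 3.10 and 3.48 in replicates 1, 2 and 4. Others were SMIM47, CTXN3, CHADL, LY6K, C1QTNF1, GRAMD2A, C1QTNF6, KIAA1614, SYNGR1 and RIN1, ranked among the first 15, and MAP3K2, ITGB1BP2, ANKRD34C and AMBN after them. Several of the first 15 had another region with an H2A peak close by. It was 0.018 kb away at RIN1, 0.266 kb at SYNGR1, 0.339 kb at DOK5 and 0.52 kb at CTXN3. At NME3, SMIM47 and LIMD2 it was 0.747, 0.858 and 0.962 kb away. For the rest of the first 15 the distance was 1.455 to 13.33 kb.

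Gene lists were read through the nearest coding TSS, and each count stands beside the same share over all regions. Immediate early and AP-1 genes were nearest to 6 members (0.856%, against 0.224% of all regions, 0.216% of the other regions in 3 or 4 libraries and 0 H2A-leaning regions). These were 3 regions nearest to KLF4, 1 to JUN, 1 to KLF2 and 1 to KLF6, of which KLF2, KLF4 and KLF6 are Krüppel-like zinc finger factors. The KLF6 region lay 274 kb upstream and had a fold of 4.33, 4.30, 3.71 and 3.30 in replicates 1 to 4. The KLF2 region, 30.9 kb upstream, had 3.94, 3.40 and 5.22 in replicates 2 to 4. One of the KLF4 regions stood 560 kb upstream, so nearest does not mean near.

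TGF-beta and BMP genes were nearest to 7 members (0.999%, against 0.537% of all regions). They were the signal transducer SMAD3 (fold 4.43 ± 0.849, SD, n = 3), the receptor BMPR1A (3.52 ± 0.702), the secreted BMP antagonists NOG (4.97 ± 1.19) and GREM1 (4.54 ± 0.425), the adaptor TAB2, and the kinase MAP3K7 with 2 regions. Distances of these members to the nearest TSS ran from 18.85 kb (BMPR1A) to 325 kb (MAP3K7). The regions nearest to NOG and GREM1 lay in introns of ANKFN1 and FMN1. The Hippo pathway had 4 (0.571% against 0.245%). They were nearest to the kinase LATS2 (6.30 kb), its activator MOB1B (19.1 kb), the coactivator YAP1 (21.0 kb) and the matrix target CCN1 (48.4 kb). Another region, with an H2A peak, lay 0.032 kb from the CCN1 region and 1.23 to 5.54 kb from the others of this list. At YAP1 the intronic region had a fold of 3.27, 3.02 and 3.25 in replicates 1 to 3. WNT ligands and receptors had 4 (0.571% against 0.293%), nearest to the receptor genes FZD8 (283 kb), FZD7 (81.5 kb), FZD2 (42.1 kb) and ROR2 (202 kb). H2A-leaning regions had 3, 4 and 3 for these lists.

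Neuronal adhesion and synapse genes, which are long and lie in gene-poor stretches, were nearest to 15 members (2.14% against 1.97% of all regions), a share near the background. CNTNAP2, a neurexin-like adhesion protein, had an intronic region with a fold of 4.07, 3.86, 5.54 and 4.48. Extracellular matrix genes had 6 (0.856% against 0.450%). They were nearest to HMCN2 (25.1 kb), COL5A1 (89.9 kb), COL3A1 (187 kb), HAPLN1 (254 kb), COL13A1 (43.8 kb) and VCAN (53.2 kb). Another region, with an H2A peak, lay 0.001 kb from the COL13A1 region and 1.77 to 27.4 kb from the others of this list. Polycomb genes had 4 (0.571% against 0.256%), 2 of them at JARID2, a partner of PRC2, with CBX6 and AEBP2. The acidic patch list, proteins known to dock on that surface, had 3 (0.428% against 0.147%), all nearest to CENPC, the centromere protein, at 617 kb to 906 kb from its TSS. The remodeler BAF had 2 regions (0.285% against 0.198%), both nearest to ARID1B, at 6.595 and 354.5 kb from its TSS. Kidney development had 2 (0.285% against 0.307%), nearest to ITGA8 (15.1 kb) and TFAP2A (328 kb). The nuclear factor I genes had 1 (0.143% against 0.125%), nearest to NFIA (8.92 kb). GATA factor and interferon response genes had 0, and among all regions they made up 0.153% and 0.0867%. H2A-leaning regions had 16, 4, 2, 1 and 4 for the neuronal, matrix, polycomb, acidic patch and BAF lists. They had 0, 0, 3 and 0 for the kidney, nuclear factor I, GATA and interferon lists. Counts this small move by a large share with 1 region more or less.

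Base composition of the members was low in GC. Median GC was 43.4%, against 44.7% for the other regions in 3 or 4 libraries, 46.5% for H2A-leaning regions and 47.0% for all. The ratio of observed to expected CpG was 0.195, against 0.203, 0.193 and 0.241, and it exceeded 0.6, a level typical of CpG islands, in 17 members (2.43%), near the 3.14% of the other regions in 3 or 4 libraries and 2.45% of H2A-leaning regions, and in 15.7% of all regions.

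The CTCF core was rare in E92K-leaning regions. On either strand within 250 bp of the centre it was found in 12 of 701 (1.71%, exact 95% interval 0.888 to 2.97), in 62 of 816 H2A-leaning regions (7.60%, 5.88 to 9.63), in 4.40% of the other regions in 3 or 4 libraries and in 5.34% of all regions. The members in 3 of 4 libraries alone, which are the larger share, had it in 9 of 566 (1.59%, 0.730 to 3), and their H2A-leaning counterparts in 42 of 638 (6.58%, 4.79 to 8.79). Members in 4 of 4 had it in 3 of 135 (2.22%, 0.461 to 6.36), and H2A-leaning regions in 4 of 4 in 20 of 178 (11.2%, 7 to 16.8). The interval of the 135 holds both the 4.40% and the 5.34%. Intervals here are Clopper-Pearson and cover counting error over regions only, not the spread between libraries. A motif match shows letters and not binding. The H2A-leaning set also held more strong peaks. Above the 50th percentile of the list stood 50, 41, 47 and 48 of its peaks in H2A replicates 1 to 4. Of the members' peaks, 7, 15, 8 and 9 did so in E92K replicates 1 to 4. In regions seen in 1 library the core share was 0.945% to 1.51% for E92K and 1.55% to 1.96% for H2A libraries. The part of peak strength in these shares was not tested.

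The members had the lowest share of these 3 sets at each level of GC, on at most 5 matches per level and without intervals. The core was in 3 of 224 members with GC under 40% (1.34%), 4 of 189 from 40% to 45% (2.12%), 0 of 145 from 45% to 50% and 5 of 143 from 50% (3.50%). In the other regions in 3 or 4 libraries the shares were 5.00%, 3.21%, 4.11% and 5.20%, and in H2A-leaning regions 13.3%, 6.15%, 3.43% and 7.86%. Among the 12, MYLK and RPIA were in the top 10 of members in 3 of 4 libraries, and CHMP6, SOX12 and DAAM2 had a peak in 4 of 4. At DAAM2, a formin of WNT signalling, the fold was 5.09, 5.63, 4.33 and 3.84 in replicates 1 to 4. At PHF3 it was 3.23, 2.99 and 3.09 in replicates 1 to 3, just above the lists' q limit.

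GATA, homeobox, AP-1 and forkhead words had higher shares within 250 bp of the centre in the members than in the sets they are set beside here. AGATAA, bound by GATA factors, was in 240 (34.2%), against 26.5% of H2A-leaning regions, 29.9% of the other regions in 3 or 4 libraries and 25.4% of all. TAATTA, a homeobox word, was in 125 (17.8%), against 11.9%, 13.6% and 11.8%. TGANTCA, the AP-1 word, was in 148 (21.1%), against 15.7%, 18.6% and 15.8%, but within 100 bp the order reversed, with 7.99% of members and 8.12% of the other regions in 3 or 4 libraries. TGTTTAC, a forkhead word, was in 78 (11.1%), against 6.62%, 9.97% and 7.96%. The words of SOX, CEBP, MEF2, heat shock factor and nuclear factor I, given below, also had higher shares in the members than in these sets. For those words the members' exact 95% interval held the share of the other regions in 3 or 4 libraries. It did so for AP-1 (18.15 to 24.32) and forkhead (8.895 to 13.69) as well.

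The GATA, homeobox and AP-1 shares varied with base composition. With GC under 40%, AGATAA was in 46.0% of members, 44% of the other regions in 3 or 4 libraries and 38.0% of H2A-leaning regions, and TAATTA in 26.3%, 24.5% and 27.1%. From 45% to 50% GC, AGATAA was in 32.4%, 26.8% and 25.7%, and TAATTA in 15.2%, 9.47% and 10.3%. Between 40% and 45% the share with AGATAA was 34.4% in members and 36.6% in the other regions, the reverse order. The AP-1 word was in 16.6% of members from 45% to 50% GC, under the 19.6% of the other regions and 20% of H2A-leaning regions, while in the 3 other bins its share was highest in the members.

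The full palindrome of nuclear factor I was in 4 members (0.571%), 0 H2A-leaning regions and 0.170% of all, and its single side TTGGCA in 28% of members and 23.4% of all. The T-box word AGGTGTGA was in 0 of the 135 members in 4 of 4 libraries and 18 of the 566 in 3 of 4 (3.18%), against 2.71% of all regions, so its absence from the smaller set did not carry over to the larger. Words of active promoters had shares below those of all regions but near those of the other regions in 3 or 4 libraries. The SP and KLF word GGGCGG was in 11.4% of members, 23.5% of all and 11.3% of those others, and the ETS word CCGGAA in 4.85%, 9.68% and 4.84%. The NRF1 word GCGCATG was in 2%, 2.54% and 1.62% and the CREB word TGACGTCA in 0.571%, 0.741% and 0.367%.

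Many other words had shares close to those of all regions, while the SOX, CEBP, heat shock and MEF2 words had higher ones. CCAAT of NFY was in 49.5% of members against 47.4% of all, CATTCC of TEAD in 25.8% against 25.1%, TGTGGT of RUNX in 28.5% against 28.2% and AGGTCA of nuclear receptors in 27% against 27%. The E-box CAGCTG was in 27.2% against 26.3%, the E-box CACGTG in 4.85% against 6.98% and the E-box CATCTG in 30.7% against 30.1%. ACAATG of SOX was in 26.1% against 20.7%, TTGCNNAA of CEBP in 24.7% against 21.2% and GAANNTTC of heat shock factor in 15.1% against 11.7%, all 3 poor in G and C. ATGCAAA of octamer factors was in 8.27% against 8.93%, CTATTTAT of MEF2 in 3.57% against 2.19%, TCAGGTTTC of the sine oculis family in 0.856% against 0.938% and GTCACGC of PAX in 0.713% against 1.83%. The IRF motif was in 7.28% against 6.63%, and the HNF1 motif in 0 members and 3 of all regions.

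**Figure D5:**
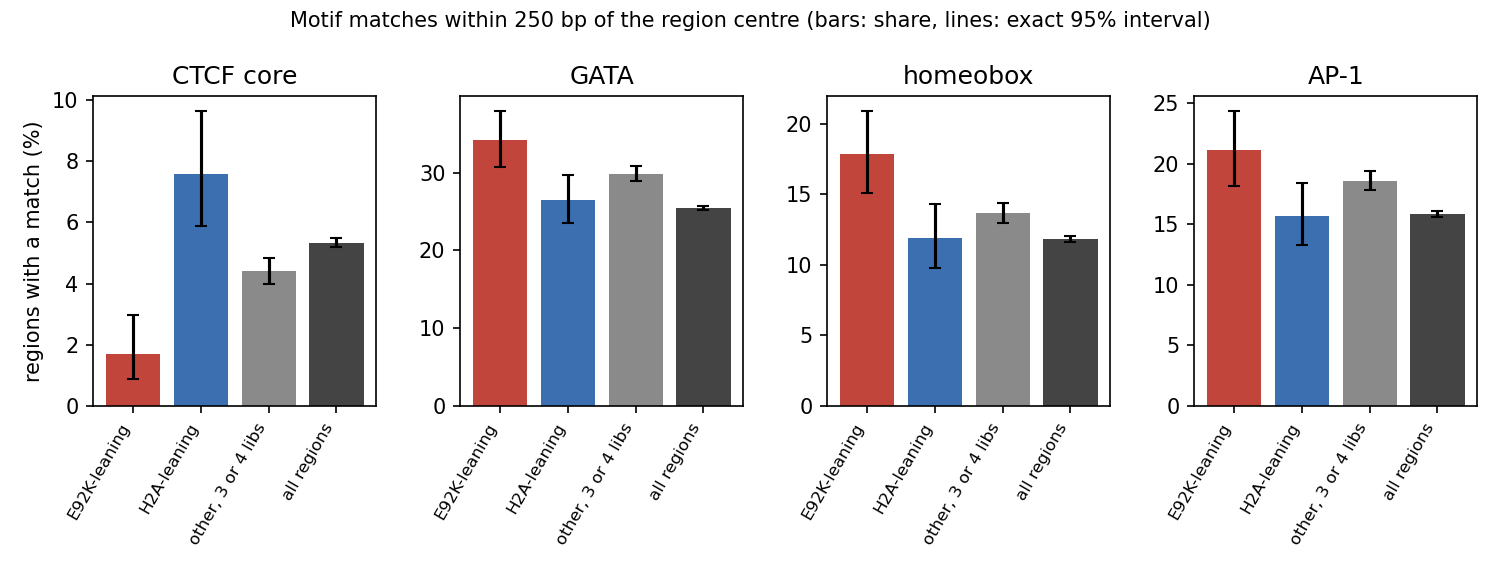
Share of regions (%) with a match to the CTCF core, the GATA word AGATAA, the homeobox word TAATTA or the AP-1 word TGANTCA within 250 bp of the region centre; bars are shares and lines exact 95% intervals over regions. The CTCF bar of the E92K-leaning regions (1.71%) is the lowest of 4 sets, and its bars for the 3 other words (34.2%, 17.8% and 21.1%) are the highest.

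The same contents were compared between libraries in regions seen in exactly 1 library, which include no E92K-leaning region. This comparison was chosen after the shares above were seen. The CTCF core share was 1.43%, 1.51%, 0.945% and 1.18% in E92K replicates 1 to 4 and 1.96%, 1.89%, 1.55% and 1.77% in H2A replicates 1 to 4. The E92K libraries were lower and the groups did not overlap (1.27% ± 0.255 against 1.79% ± 0.180, SD, n = 4 each; exact two-sided permutation p = 0.0286, the smallest that 4 against 4 allows). After Benjamini-Hochberg adjustment over 5 measures the exact permutation p was 0.143 and missed 0.05. With replicates paired by number the exact p was 0.125, also the smallest possible.

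The other 4 measures overlapped between groups. The AGATAA share was 30.6% ± 0.753 in E92K and 28.1% ± 1.61 in H2A libraries (exact permutation p = 0.0571, adjusted p = 0.143, n = 4 each). The TAATTA share was 14% ± 0.971 against 13.0% ± 0.592 (exact permutation p = 0.143, adjusted p = 0.179, n = 4 each) and median GC 44.3% ± 0.550 against 45% ± 0.443 (exact permutation p = 0.143, adjusted p = 0.179, n = 4 each). The TGANTCA share was 17.7% ± 1.5 against 17.3% ± 1.21 (exact permutation p = 0.686, adjusted p = 0.686, n = 4 each). Depth differed between the groups as given above, and its part in these shares was not tested.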

How the data were processed

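ATAC-seq was measured in 8 HEK293T libraries, 4 per group, grouped and numbered by their titles. Each library has 1 deposited list of 10 columns in narrowPeak layout, called per sample. The genome build is hg38, per the labels. Not given in the sources used here are the aligner, the peak caller, the Tn5 shift and the handling of duplicates, each of which can change peak edges and significance. The deposited score is a whole number per peak. The deposited fold is a ratio, summit over local background. Significance was deposited as −log10 p-value and −log10 q-value, and the smallest −log10 q was 2 in each list. The last deposited column is the summit's offset, a value of another kind.

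Rows repeating an interval are further summits of 1 peak, for which the summit of smallest p stood. Whole-number pileups and backgrounds were recovered from fold and p-value under a Poisson model (tolerance 0.001 in −log10 p). Intervals that overlapped or touched were merged, and 1 bp of overlap counted as presence. Regions were placed by midpoint on GENCODE version 44 (GRCh38). The 28 motifs were searched on both strands of the 501 bp around the centre. The merging and choice of members was tested on simulated lists.

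The members, motifs and 13 gene lists were chosen with earlier results of these data known. Members named are the 10 strongest with a peak in 4 of 4 and the 10 strongest in 3 of 4 E92K libraries (by the lowest within-list percentile), promoter members (15 ranked), the 6 closest pairs, the 5 widest, up to 3 per gene list, and all with a CTCF core. The last group, the high-background members and the remaining promoters were added after values were seen. Regions carry no test. The 1 set of exact permutation tests compared single-library regions, with Python 3.11.15 and scipy 1.17.1. Total read numbers were not analysed here.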

Additional observations from a re-analysis of the deposited data

How the results depend on the processing

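The number of E92K-leaning regions, 701, was 885 when a peak had to cover at least 50% of a region, 719 when lists were cut to equal size and 701 with peaks up to 100 bp apart merged. Of the 701, 417, 475 and 687 were found again. The mirror count of 816 H2A-leaning regions was 993, 646 and 827 in these settings. With lists of equal size it was thus the smaller of the 2 counts. With only peaks of −log10 q of at least 5 the rule gave 550 regions, 77 of them among the 701, so this threshold gave a largely different set. The mirror rule gave 532 at that threshold, also the smaller count. Requiring 4 of 4 libraries left 135, against 178 H2A-leaning regions. Leaving out an E92K library and asking for a peak in all 3 others gave 227 to 321 regions, and leaving out an H2A library gave 1019 to 1182. The lowest count, 227, was without E92K replicate 2 and the highest, 1182, without H2A replicate 4. A promoter of 2000 bp raised the promoter share from 3.14% to 5.56%, and a motif window of 100 bp lowered each motif share except that of HNF1, which stayed at 0, as follows from a narrower window.

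Added after seeing the data were the set without high local background (621), the GC bins, the CTCF core share without each library (1.56% to 2.60%) and the comparison of regions seen in 1 library. In that comparison the replicate block, which pairs libraries by number, gave an exact p of 0.125 for the CTCF core. The numbers share only a name, since the labels give no common culture or day. Without each library in turn the CTCF difference ranged from -0.609 to -0.421 percentage points. The AP-1 difference, 0.367 points, ranged from -0.342 without E92K replicate 2 to 0.934 without H2A replicate 2, and the cause was not tested. With 3 libraries against 4 no exact p reaches 0.05. A summit of 15 fragments leaves a wide counting error, so absence of a peak at this depth is not shown to be closed chromatin.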
